A study of Homo sapiens with 26 samples.

Results

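The comparison set 3 libraries of cells kept for 16, 20 and 24 h in acidic medium of pH 6.3 against 3 libraries of the same hours in neutral medium of pH 7.4, 6 of the 26 libraries of a 52 h time course. The cells were U2OS, an established human osteosarcoma line, here with a luciferase reporter of the clock gene ARNTL (Arntl::dLUC). Media of both pH values held the buffers HEPES and PIPES at 25 mM each, 5% serum and 0.1 µM dexamethasone, a synthetic steroid hormone used to bring the clocks of a dish into step, and the dishes were sealed and kept without added carbon dioxide. The libraries were taken by medium and hour, and they and the gene lists below were chosen with earlier results of these data known. Each dish gave 1 library, and both media of an hour were harvested together, so the values were paired by hour. Since the 3 hours are successive times and not repeats of 1 time, SE and p-values measure spread over hours, not between repeat dishes. Both come from 1 fit of all 13 hourly pairs of the time course, so they do not describe the 3 listed values alone. Levels are FPKM (fragment counts divided by transcript length and by library size) as deposited, listed in the order 16, 20 and 24 h. The acid difference of a gene is the mean of its 3 hourly differences pH 6.3 minus pH 7.4 on the log2(FPKM + 1) scale, where changes of low genes come out too small.

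Cells take up protons from acidic surroundings, and the lower inner pH slows glycolysis and the growth kinase mTORC1, which drives protein synthesis. The circadian clock is a feedback loop in which ARNTL (BMAL1) and CLOCK switch on the PER, CRY and NR1D genes, whose proteins then repress ARNTL and CLOCK activity. In unperturbed cells the loop takes about a day, and a pulse of dexamethasone starts it in all cells of a dish at once, through the glucocorticoid receptor.

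If the most frequent low FPKM value of long single-transcript genes stands for 1 fragment, the 6 libraries held 23.6 to 29.03 M fragments (M for mega), and the shallowest of the others, pH 7.4 at 12 h and pH 6.3 at 8 h, 9.70 and 11.1 M. In the pH 6.3 library of 20 h GC content of the transcripts correlated with how far a gene stood from its mean (r = 0.576 across 11815 genes, which are not independent replicates), against −0.02 to 0.19 in the other 5 libraries. The hourly acid difference correlated with GC at r = −0.047, 0.370 and −0.096 for 16, 20 and 24 h. Results that did not hold without 1 hourly pair are named beside their values. The 3 hours gave similar differences across all 11838 tested genes, with correlations of 0.72 to 0.76 between hours. Markers matched the labelled line in part. SPARC, COL1A1, VIM and RUNX2, genes of osteoblasts and mesenchymal cells, were present, and SP7 and TWIST1 were listed at 0 in all 6 libraries. IBSP reached at most 0.03 FPKM, BGLAP 0.71 FPKM and COL1A2 1.09 FPKM. ALPL was at 0.82 to 1.39 FPKM at pH 6.3 and 2.06 to 4.03 FPKM at pH 7.4. The summed level of the 15 osteoblast and mesenchymal markers was 1936 to 2532 FPKM at pH 6.3 and 2012 to 2089 FPKM at pH 7.4. Most of it came from SPARC and VIM. The 10 epithelial markers summed to 172 to 284 FPKM at pH 6.3 and 218 to 264 FPKM at pH 7.4, nearly all from KRT8 and KRT18, and the 10 leukocyte markers, mainly LCP1, to 10.7 to 12.5 FPKM at pH 6.3 and 13.98 to 21.3 FPKM at pH 7.4. The 8 endothelial markers summed to 1.17 to 2.24 FPKM at pH 6.3 and 1.27 to 1.80 FPKM at pH 7.4. The part of these markers in the results was not tested.

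At 16 to 24 h 1690 of 11838 genes were higher at pH 6.3 (14.3%) and 3195 lower (27%) in limma's test at an adjusted p below 0.05, 41.3% in all. At least a 2-fold difference was seen for 522 of the higher and 1193 of the lower genes. In 2461 genes (20.8%) all 3 acid values lay above all 3 neutral values, and in 4277 (36.1%) below them. The median acid difference of all genes was −0.14, and −0.26, −0.07 and −0.13 at 16, 20 and 24 h, so a level here is relative to all other RNA of a library. Fewer cells of a kind and less RNA per cell cannot be told apart in these samples. The split of calls depended on the scaling. Quantile normalization brought the median to −0.004, with 2151 genes higher and 2504 lower. A correction for GC content brought the median to 0.004, with 3015 and 2956. This correction also removes the overall shift of each library. GC and that shift thus cannot be told apart in the counts given after it, here and below. Without the 20 h pair 1136 genes were higher and 2272 lower, without the 16 h pair 1271 and 2079, and without the 24 h pair 1125 and 2492. The counts of each gene list below stand against the shares of all genes, 14.3% higher and 27% lower, and are given again where quantile normalization, the GC correction or a pair left out turned their balance or moved a count of 3 or more by over 1.5 times.

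**Figure D1:**
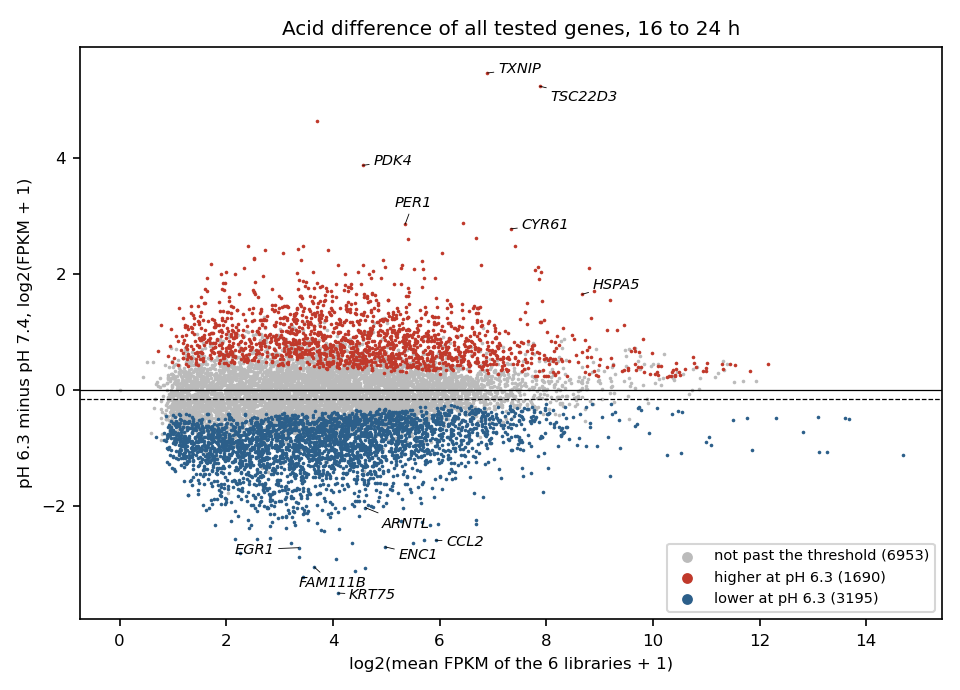
Acid difference (pH 6.3 minus pH 7.4, log2(FPKM + 1), vertical axis) of the 11838 tested genes against their mean level in the 6 libraries (horizontal axis, log2 scale); each point is a gene, red where higher and blue where lower at pH 6.3, and the dashed line is the median of −0.14. TXNIP and TSC22D3 stand apart at the top, with differences of 5.45 and 5.23.

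The largest increase was that of TXNIP, whose product binds thioredoxin and limits the entry of glucose. TXNIP had 276, 219.5 and 199 FPKM at pH 6.3, against 6.38, 4.62 and 2.49 FPKM at pH 7.4, an acid difference of 5.45 (SE 0.20, adjusted p = 5.78e-09). Both media had lower values at each later hour, and the hourly difference was 5.23, 5.29 and 5.84. TXNIP (ENSG00000265972) lies on chromosome 1 from 145992435 to 145996600 on the reverse strand in GRCh38. Its RefSeq promoter (GRCh38.p14, chr1:145996530-145996829, reverse strand, 250 bases before to 50 after the start) is shown because it holds the letters of a carbohydrate response element, the site at which MondoA and its partner MLX bind. The capitals mark the match to a pair of CACGTG boxes 5 bases apart, with at most 1 mismatch in each box. The pattern was found on either strand in 0.458% of 27305 promoters and in 0.572% of the promoters of tested genes.
TXNIP: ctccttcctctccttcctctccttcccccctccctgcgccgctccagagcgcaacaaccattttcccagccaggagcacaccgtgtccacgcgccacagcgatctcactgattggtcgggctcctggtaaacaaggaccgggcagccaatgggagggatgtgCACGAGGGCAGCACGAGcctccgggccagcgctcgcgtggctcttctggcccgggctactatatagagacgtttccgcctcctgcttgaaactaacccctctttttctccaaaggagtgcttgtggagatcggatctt

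Of the 5 listed targets of MondoA, a transcription factor that responds to sugar phosphates and to energy state, 4 rose and 0 fell, against 14.3% higher and 27% lower among all genes, and their median difference was 1.10, against −0.14 for all genes. ARRDC4, a relative of TXNIP in the arrestin family, was at 6.53, 7.18 and 7.65 FPKM at pH 6.3 and 0.984, 0.939 and 0.776 FPKM at pH 7.4 (difference 2.10, adjusted p = 5.41e-06). HBP1, a repressor of cell cycle genes, rose by 1.10. Of the 4 members with a promoter in the table, the 300 bases of 1, TXNIP, held the element.

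Among genes that direct pyruvate into or away from the mitochondrion, the kinase gene PDK4, whose product shuts off pyruvate dehydrogenase, rose most. It had 39.5, 43.8 and 45.8 FPKM at pH 6.3 and 2.99, 1.93 and 1.34 FPKM at pH 7.4, so the groups were more than an order of magnitude apart at each hour (difference 3.87, SE 0.25, adjusted p = 2.5e-06). PDHX, a structural subunit of the complex, rose by 0.92. In the opposite direction DLD, its dihydrolipoyl dehydrogenase, fell by 1.20, the kinase gene PDK3 by 1.20 and DLAT, its acetyltransferase, by 0.74. Of 13 measured genes of this switch 2 rose, 5 fell and 6 did not pass, with a median of 0.05, and 14.3% of all genes were higher. Without the 16 h pair 3 were higher and 2 lower, and without the 20 h pair 2 and 3. DLAT missed the threshold without the 16 h pair (adjusted p = 0.100).

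TSC22D3, the glucocorticoid-induced leucine zipper, which restrains inflammatory transcription factors, was second only to TXNIP in size. Its level was 419, 497 and 456 FPKM at pH 6.3 and 14.7, 11.9 and 7.99 FPKM at pH 7.4 (difference 5.23, SE 0.38, adjusted p = 5.41e-06). Its neutral values declined through the window while the acid ones stayed above all of them. Of 14 measured glucocorticoid targets 10 rose, 0 fell and 4 did not pass, with a median of 1.58, beside 14.3% higher and 27% lower among all genes. DUSP1, a phosphatase that switches off MAP kinases, was at 161, 191 and 175 FPKM at pH 6.3 and 36.8, 27.3 and 21.1 FPKM at pH 7.4 (difference 2.62, adjusted p = 2.24e-06). PDK4 and PER1 also stand on that list. The glucocorticoid response element, with at most 1 mismatch, stood in 0 of 12 promoters of the list. It stood in 0.033% of the promoters of tested genes and 0.176% of all promoters. Both media held the same dexamethasone.

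**Figure D2:**
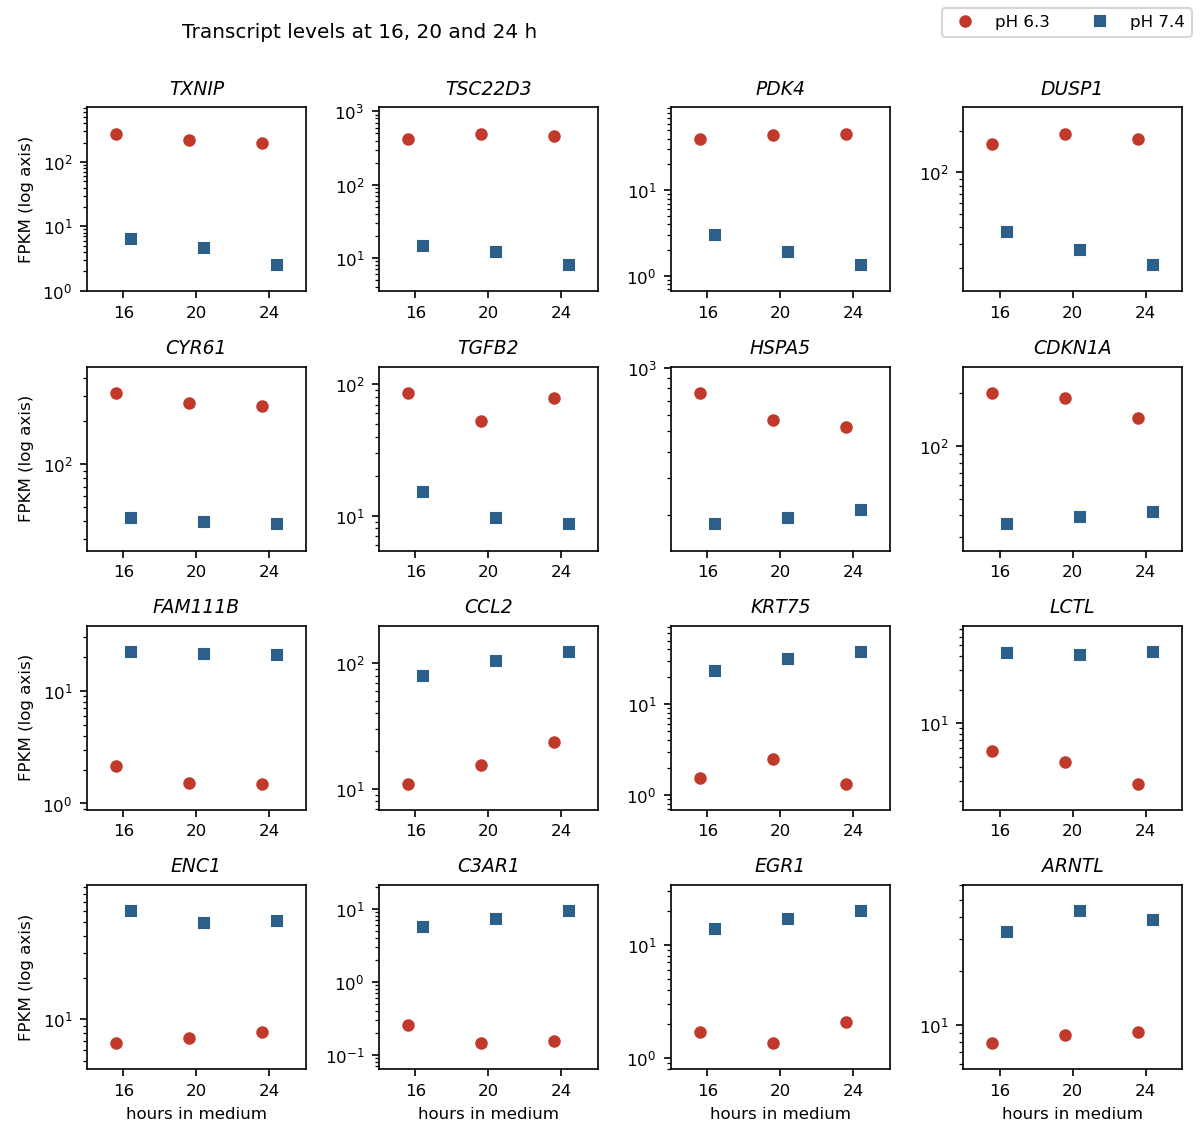
Level in FPKM (log axis) of 16 named genes in each of the 6 libraries against hours in medium; red circles are pH 6.3 and blue squares pH 7.4, 1 library each, with no error bar since each point is a single library. The first 8 genes have all 3 acid values above all neutral ones and the last 8 all acid values below them.

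Other genes among the 12 largest increases came from several processes. KRT81, a hair keratin gene that shares reads with near-identical keratins, was at 104, 249 and 108 FPKM at pH 6.3 and 20.5, 18.6 and 16.3 FPKM at pH 7.4 (difference 2.87, adjusted p = 2.41e-04). CYR61, a secreted matrix protein and target of YAP, had 317, 269 and 256 FPKM at pH 6.3 and 42.5, 39.8 and 38.0 FPKM at pH 7.4 (difference 2.77). The growth factor gene TGFB2 rose by 2.60 and NDRG1, a stress-induced gene with known responses to hypoxia, by 2.47. The 20 h acid value of KRT81 stood above those of 16 and 24 h, and its transcripts hold 62.7% GC, against a median of 48.5% over the tested genes. After the GC correction its difference was 2.85, and without the 20 h pair 2.47 (adjusted p = 0.00439). A row named MALAT1, whose identifier had no match in the annotation, had 27.8, 19.7 and 24.1 FPKM at pH 6.3 and at most 0.000253 FPKM at pH 7.4, so no fold is given.

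The largest decreases came from several functions. KRT75, a keratin of hair follicles, had 1.54, 2.51 and 1.34 FPKM at pH 6.3, against 22.9, 31.3 and 37.4 FPKM at pH 7.4 (difference −3.49, SE 0.35, adjusted p = 3.13e-05). FAM111B, a protease gene, was at 2.16, 1.52 and 1.504 FPKM at pH 6.3 and 22.2, 21.3 and 20.8 FPKM at pH 7.4 (difference −3.04, adjusted p = 2.23e-05). In both genes every neutral value lay far above every acid one. LCTL, a relative of lactase, fell by 3.05, the enamel matrix gene C4orf26 by 3.12, the glucose transporter gene SLC2A12 by 2.91, the sphingosine phosphate receptor gene S1PR5 by 2.87 and the complement receptor gene C3AR1 by 2.79. ENC1, an actin-binding protein first found in neurons, had 6.79, 7.34 and 8.14 FPKM at pH 6.3 and 60.2, 49.7 and 51.2 FPKM at pH 7.4 (difference −2.70). ALOX5AP, a helper protein of leukotriene synthesis, and RASSF4, a Ras effector gene, each fell by 2.63. CTC-429P9.4, whose role is unknown here, fell by 3.22, with the acid library of 16 h listed at 4.59e-40 FPKM, in effect no signal. CTC-429P9.4 missed the threshold without the 16 h pair (adjusted p = 0.0524).

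Clock genes went both ways. Among 17 measured genes 10 rose and 3 fell, with a median of 1.45, against −0.14 for all genes. Those that rose were the 3 PER and 2 CRY repressors, both NR1D (REV-ERB) repressors, RORA, and the output factors DBP and TEF, while those that fell were ARNTL, ARNTL2 and CLOCK, the activators. ARNTL was at 7.93, 8.80 and 9.10 FPKM at pH 6.3 and 33.1, 43.1 and 38.5 FPKM at pH 7.4 (difference −2.02, SE 0.25, adjusted p = 9.01e-05). CLOCK fell by 0.96 and ARNTL2 by 0.75. The reporter of these cells is driven by the promoter of ARNTL and is a separate transgene, whose own RNA was not analysed here. BHLHE40 (−0.05), BHLHE41 (0.04), NFIL3 (0.01) and NPAS2 (−0.45) did not pass, and the hourly differences of BHLHE40, BHLHE41 and NFIL3 had both signs.

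PER1, a repressor that glucocorticoids also switch on, had 49.8, 132 and 34.2 FPKM at pH 6.3 and 7.96, 7.29 and 7.54 FPKM at pH 7.4 (difference 2.85, SE 0.56, adjusted p = 0.00157). Its acid value of 20 h was the highest in the 26 libraries. PER1 transcripts hold 62.6% GC, and the difference was 2.84 after the GC correction and 2.27 (adjusted p = 0.0219) without the 20 h pair. TEF, a PAR bZIP factor that drives genes with a D-box, was at 23.7, 19.4 and 8.97 FPKM at pH 6.3 and 4.76, 1.32 and 1.15 FPKM at pH 7.4 (difference 2.49, adjusted p = 3.25e-04). NR1D1 (REV-ERBα), the main repressor of ARNTL, had 17.6, 24.0 and 7.32 FPKM at pH 6.3 and 1.048, 1.55 and 3.72 FPKM at pH 7.4 (difference 2.43, adjusted p = 0.0144). Its hourly differences of 3.18, 3.29 and 0.82 were smallest at 24 h, where its acid level was lowest and its neutral level highest. NR1D1 missed the threshold without the 16 h pair (adjusted p = 0.101). NR1D1 missed the threshold without the 20 h pair (adjusted p = 0.0997). NR1D1 overlaps THRA on the other strand, and the strand setting of the counting is not given in the sources used here, so reads of the pair cannot be told apart.

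Both CRY repressors were higher in acid at every hour. CRY1 had 106, 70.8 and 68.0 FPKM at pH 6.3 and 29.2, 20.4 and 9.82 FPKM at pH 7.4 (difference 2.08). CRY2 had 25.8, 29.1 and 17.1 FPKM at pH 6.3 and 7.22, 3.20 and 1.84 FPKM at pH 7.4 (difference 2.41). The neutral level of both CRY genes declined through the window, and the acid values stayed above every neutral one. NR1D2 rose by 2.04, PER2 by 1.99, PER3 by 1.84, DBP by 1.45 and RORA, an activator of ARNTL, by 1.25.

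**Figure D3:**
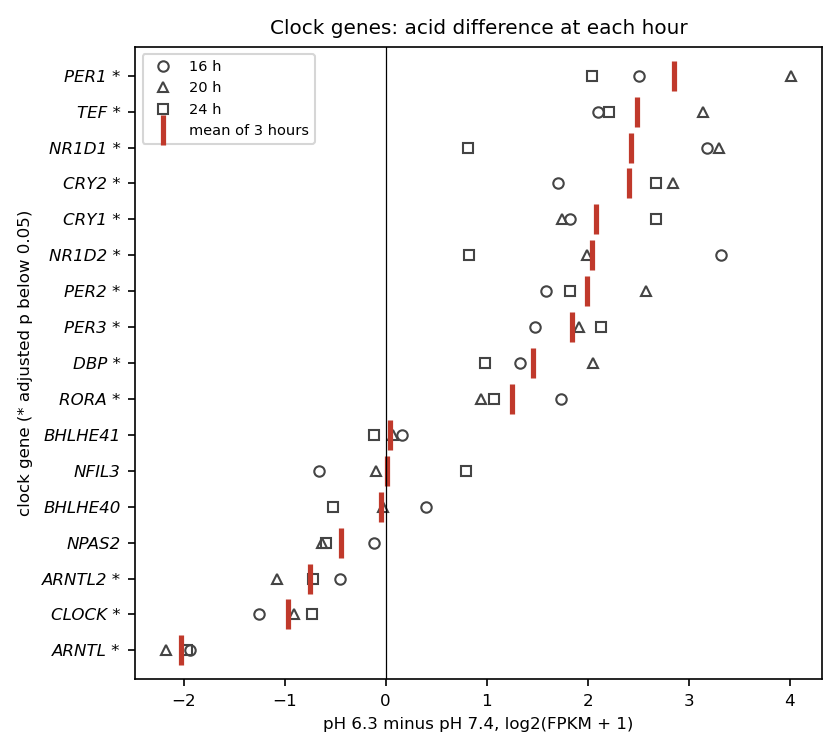
Acid difference (pH 6.3 minus pH 7.4, log2(FPKM + 1), horizontal axis) of the 17 measured clock genes, with open circles, triangles and squares for 16, 20 and 24 h and a red bar for their mean; an asterisk marks an adjusted p below 0.05. PER1 is at the top with a mean of 2.85 and ARNTL at the bottom with −2.02.

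The RefSeq promoters of PER1 (chr17:8152355-8152654, reverse strand) and TEF (chr22:41367205-41367504, forward strand; both GRCh38.p14) are shown because each holds an E-box, the site at which ARNTL and CLOCK bind. Capitals mark the E-box, CACGTG, which reads the same on both strands. It stood in 4 of the 15 clock promoters in the table (26.7%), in 10.3% of the promoters of tested genes and in 7.43% of all promoters.
PER1: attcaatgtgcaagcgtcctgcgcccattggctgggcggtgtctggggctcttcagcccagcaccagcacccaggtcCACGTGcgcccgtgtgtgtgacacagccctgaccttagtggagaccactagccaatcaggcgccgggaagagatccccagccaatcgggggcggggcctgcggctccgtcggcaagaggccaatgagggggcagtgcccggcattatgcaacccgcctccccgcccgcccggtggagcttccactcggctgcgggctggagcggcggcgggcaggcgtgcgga
TEF: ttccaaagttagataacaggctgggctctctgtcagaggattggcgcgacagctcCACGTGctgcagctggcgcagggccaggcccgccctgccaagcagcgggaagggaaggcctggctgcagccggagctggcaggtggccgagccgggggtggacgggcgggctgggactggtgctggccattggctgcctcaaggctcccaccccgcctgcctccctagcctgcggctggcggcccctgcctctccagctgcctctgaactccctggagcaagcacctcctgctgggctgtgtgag
The carbohydrate response element contains E-box letters, so the searches for both overlap. Of the 10 clock genes that rose, PER1 and TEF were those with an E-box in these 300 bases, and the other matches were in BHLHE40 and BHLHE41.

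Genes of several stress pathways rose. Of 24 measured genes of endoplasmic reticulum stress and folding 15 rose, 0 fell and 9 did not pass, with a median of 0.49. HSPA5 (BiP), the main chaperone of that compartment, had 762, 568 and 527 FPKM at pH 6.3 and 180.4, 194 and 209.9 FPKM at pH 7.4 (difference 1.65, SE 0.26, adjusted p = 3.84e-04). Its acid values were lower at each later hour and its neutral values higher, without overlap. DNAJB9, a co-chaperone of HSPA5, rose by 1.25. SDF2L1, another luminal co-chaperone, rose by 1.60, with 17.5, 41.1 and 15.4 FPKM at pH 6.3 and 6.18, 6.22 and 7.84 FPKM at pH 7.4. Its transcripts hold 66.1% GC, and its difference was 1.13 without the 20 h pair. SDF2L1 missed the threshold without the 16 h pair (adjusted p = 0.0596). SDF2L1 missed the threshold without the 20 h pair (adjusted p = 0.161). The count of 15 went to 7 without the 16 h pair, 7 without the 20 h pair and 12 without the 24 h pair.

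The HSPA5 promoter (RefSeq, GRCh38.p14, chr9:125241294-125241593, reverse strand) is shown because it holds an endoplasmic reticulum stress element, in capitals, the site at which ATF6 binds with NF-Y. The letters searched were CCAAT and, 9 bases on, CCACG, on either strand. They stood in 6 of 22 promoters of that list (27.3%) and in 3 of the 13 that belong to members that rose. The shares were 0.143% for the promoters of tested genes and 0.0806% for all promoters.
HSPA5: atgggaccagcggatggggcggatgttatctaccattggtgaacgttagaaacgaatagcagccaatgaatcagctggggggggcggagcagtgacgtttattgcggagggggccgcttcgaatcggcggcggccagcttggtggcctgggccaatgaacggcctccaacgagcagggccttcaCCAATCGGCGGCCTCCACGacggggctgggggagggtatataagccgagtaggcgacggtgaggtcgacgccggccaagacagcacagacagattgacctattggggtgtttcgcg

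Targets of ATF4, the main effector of the integrated stress response, rose in 18 of 32 measured cases, and 1, the serine synthesis gene PSPH, fell (by 1.36), with a list median of 0.83. ATF3, a stress-induced repressor, was at 16.1, 16.4 and 18.1 FPKM at pH 6.3 and 4.39, 4.84 and 3.74 FPKM at pH 7.4 (difference 1.75, adjusted p = 1.10e-04). GDF15, a hormone of stressed cells, rose by 1.84 and CEBPG, a partner of ATF4, by 1.33. The mTORC1 inhibitor genes DDIT4 and SESN2 rose by 1.04 and 1.03. DDIT4, GDF15 and SESN2 missed the threshold without the 16 h pair (adjusted p = 0.139, 0.0723 and 0.0755). DDIT4, GDF15 and SESN2 missed the threshold without the 20 h pair (adjusted p = 0.147, 0.108 and 0.174). The list count was 11, 13 and 17 without the 16, 20 and 24 h pair. The letters of the ATF4 response element (TGATG, any base, AA, on either strand) stood in 4 of 23 promoters of the list (17.4%). They stood in 1.63% of the promoters of tested genes and in 3.67% of all promoters.

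Of 22 measured p53 targets 14 rose, 1 fell and 7 did not pass, with a median of 1.10. CDKN1A (p21), which blocks the cyclin-dependent kinases, had 201, 189 and 145 FPKM at pH 6.3 and 35.6, 39.2 and 42.1 FPKM at pH 7.4 (difference 2.15, SE 0.39, adjusted p = 9.89e-04). CCNG1, an atypical cyclin, had 380.0, 332 and 387 FPKM at pH 6.3 and 103, 97.4 and 88.8 FPKM at pH 7.4 (difference 1.91). FDXR, an electron donor of mitochondrial enzymes, rose by 1.54, with 11.5, 34.0 and 13.4 FPKM at pH 6.3 and 5.68, 5.45 and 5.00 FPKM at pH 7.4, highest at 20 h, and its transcripts hold 63.5% GC. FDXR missed the threshold without the 20 h pair (adjusted p = 0.0634). The oxidoreductase gene TP53I3 fell by 1.75. Without the 16, 20 and 24 h pair 8, 10 and 12 members were higher.

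The cell cycle genes moved apart. Of 42 measured genes of the G1/S transition and replication 31 fell, 1 rose and 10 did not pass, with a median of −0.98, and 26 to 28 were lower without any 1 of the 3 pairs. MCM10, which starts replication forks, had 5.61, 4.37 and 4.65 FPKM at pH 6.3 and 24.4, 25.4 and 23.0 FPKM at pH 7.4 (difference −2.11, adjusted p = 3.76e-05). FEN1, a nuclease of Okazaki fragments, was the member that rose, by 0.42. FEN1 missed the threshold without the 16 h pair (adjusted p = 0.128). FEN1 missed the threshold without the 20 h pair (adjusted p = 0.134). FEN1 missed the threshold without the 24 h pair (adjusted p = 0.128). Of 30 measured genes of G2 and mitosis 15 rose and 0 fell, with a median of 0.43. The ubiquitin-conjugating enzyme gene UBE2C rose by 0.84, the kinesin gene KIF2C by 0.83 and the spindle midzone gene PRC1 by 0.77. The count of 15 went to 12, 13 and 8 without the 16, 20 and 24 h pair.

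Of 16 measured regulators of G1 3 rose and 7 fell, with a median of −0.30. After quantile normalization 3 were higher and 4 lower, and after the GC correction 5 and 6. CCND2, which encodes cyclin D2, had 30.3, 30.9 and 28.9 FPKM at pH 6.3 and 8.66, 8.28 and 7.32 FPKM at pH 7.4 (difference 1.77). CDKN2D, an inhibitor of CDK4 and CDK6, rose by 1.17. CDK4 fell by 1.18, the pocket protein gene RBL1 by 1.66 and E2F3 by 0.93. Of the FOXO targets, genes of growth arrest and catabolism, 6 of 13 rose and 2 fell (10 higher and 2 lower after the GC correction), with BCL6, a transcriptional repressor, at 58.5, 68.0 and 94.9 FPKM at pH 6.3 and 15.2, 15.5 and 18.5 FPKM at pH 7.4 (difference 2.08). CITED2, a cofactor that limits HIF, rose by 1.77 and the pseudokinase gene TRIB1 by 0.88, while SESN3 fell by 0.54 and the mitochondrial kinase gene PINK1 by 0.79. PINK1 and SESN3 missed the threshold without the 16 h pair (adjusted p = 0.222 and 0.0541). SESN3 missed the threshold without the 20 h pair (adjusted p = 0.0944). PINK1 missed the threshold without the 24 h pair (adjusted p = 0.154).

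Immediate early genes did not move as 1 group. Of 14 measured 6 rose, 1 fell and 7 did not pass, with a median of 0.60. The gene that fell was EGR1, a zinc finger factor induced by growth factors through SRF, with 1.69, 1.36 and 2.06 FPKM at pH 6.3 and 13.8, 16.7 and 19.7 FPKM at pH 7.4 (difference −2.71, SE 0.49, adjusted p = 9.81e-04). NR4A2, an orphan nuclear receptor, rose by 1.84, ATF3 by 1.75 and the small MAF gene MAFF by 1.14. MYC, which stands on that list and on that of ribosome biogenesis, rose by 0.65. MAFF missed the threshold without the 16 h pair (adjusted p = 0.0736). MYC missed the threshold without the 20 h pair (adjusted p = 0.154). MYC missed the threshold without the 24 h pair (adjusted p = 0.0652). The EGR1 promoter (RefSeq, GRCh38.p14, chr5:138465229-138465528, forward strand) is shown because it holds 2 CArG boxes, in capitals, the site of SRF. CArG boxes stood in 1.0% of the promoters of tested genes and in 1.29% of all promoters.
EGR1: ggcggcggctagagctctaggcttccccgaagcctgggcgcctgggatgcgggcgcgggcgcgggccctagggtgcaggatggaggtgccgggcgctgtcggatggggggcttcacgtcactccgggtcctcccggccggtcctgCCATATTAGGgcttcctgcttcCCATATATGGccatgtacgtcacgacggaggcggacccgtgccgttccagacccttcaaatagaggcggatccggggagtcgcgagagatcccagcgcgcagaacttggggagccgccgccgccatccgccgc
Of 13 genes of ERK output and feedback 1, PHLDA1, rose by 0.82 and 2, SPRED1 and CCND1, fell by 0.64 and 0.46. The balance turned under other settings. Quantile normalization gave 3 higher and 0 lower, the GC correction 4 and 0, and leaving out the 24 h pair 2 and 0. CCND1 and PHLDA1 missed the threshold without the 16 h pair (adjusted p = 0.0803 and 0.216). PHLDA1 and SPRED1 missed the threshold without the 20 h pair (adjusted p = 0.0634 and 0.0652). CCND1 and SPRED1 missed the threshold without the 24 h pair (adjusted p = 0.361 and 0.0877).

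Genes of cell shape and matrix went both ways, as did all genes, of which 14.3% were higher and 27% lower. Of 23 measured targets of YAP and TEAD, which respond to tension and spreading, 8 rose and 1 fell, with a median of 0.20. Beside CYR61 and TGFB2, CRIM1, a membrane protein that binds BMPs, had 74.3, 59.8 and 54.9 FPKM at pH 6.3 and 13.4, 13.96 and 12.3 FPKM at pH 7.4 (difference 2.16), and the growth regulator gene FJX1 fell by 0.71. Of 27 actin and SRF genes 6 fell and 1 rose, with a median of −0.22. TPM1, a tropomyosin, had 119, 90.9 and 88.6 FPKM at pH 6.3 and 320.3, 266 and 244 FPKM at pH 7.4 (difference −1.47). CNN1, a calponin, fell by 1.16 and MYH9, the heavy chain of non-muscle myosin, by 1.000, while MYL12A, a light chain, rose by 0.43. A CArG box stood in 6 of 24 promoters of this list (25.0%). Of 25 matrix genes 8 fell and 2 rose, with a median of −0.20, and 5 were lower without the 24 h pair. FN1, fibronectin, was at 1499, 1489 and 1494 FPKM at pH 6.3 and 2646, 2842 and 3174 FPKM at pH 7.4 (difference −0.95, adjusted p = 8.16e-05). The protease gene PLAU fell by 0.95 and the collagen gene COL6A3 by 0.87, and THBS1, an adhesive glycoprotein, rose by 1.03. CNN1 and MYL12A missed the threshold without the 16 h pair (adjusted p = 0.0622 and 0.320). MYL12A missed the threshold without the 20 h pair (adjusted p = 0.0647). CNN1, FJX1 and MYL12A missed the threshold without the 24 h pair (adjusted p = 0.0749, 0.0552 and 0.0852).

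Of 18 measured NF-kB, cytokine and chemokine genes 5 rose and 3 fell, with a median of 0.01. CCL2, the chemokine that draws monocytes, had 11.1, 15.5 and 23.9 FPKM at pH 6.3 and 80.03, 104.7 and 123 FPKM at pH 7.4 (difference −2.58, SE 0.25, adjusted p = 3.03e-05). The acute phase gene SAA1 was at 30.9, 72.3 and 84.9 FPKM at pH 6.3 and 11.1, 15.0 and 12.3 FPKM at pH 7.4 (difference 2.10). SAA2, nearly identical to SAA1 so that reads can be split between them, had 2.86, 8.42 and 13.1 FPKM at pH 6.3 and 0.485, 0.493 and 0.351 FPKM at pH 7.4 (difference 2.47). Both SAA genes had a higher acid value at each later hour. CCL20, another chemokine, rose by 1.86, and the cytokine gene LIF and the inhibitor gene NFKBIE fell by 1.17 and 1.12. Of 22 interferon-induced genes 7 fell and 2 rose, with a median of −0.34, beside 27% lower and 14.3% higher among all genes. The antiviral genes IFIT3, IFI44L and OAS1 fell by 1.39, 1.38 and 1.16, and the antigen presentation genes TAP1 and HLA-B rose by 1.01 and 0.81, where HLA-B can share reads with other HLA genes. HLA-B missed the threshold without the 20 h pair (adjusted p = 0.178). HLA-B and LIF missed the threshold without the 24 h pair (adjusted p = 0.0552 and 0.0911).

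**Figure D4:**
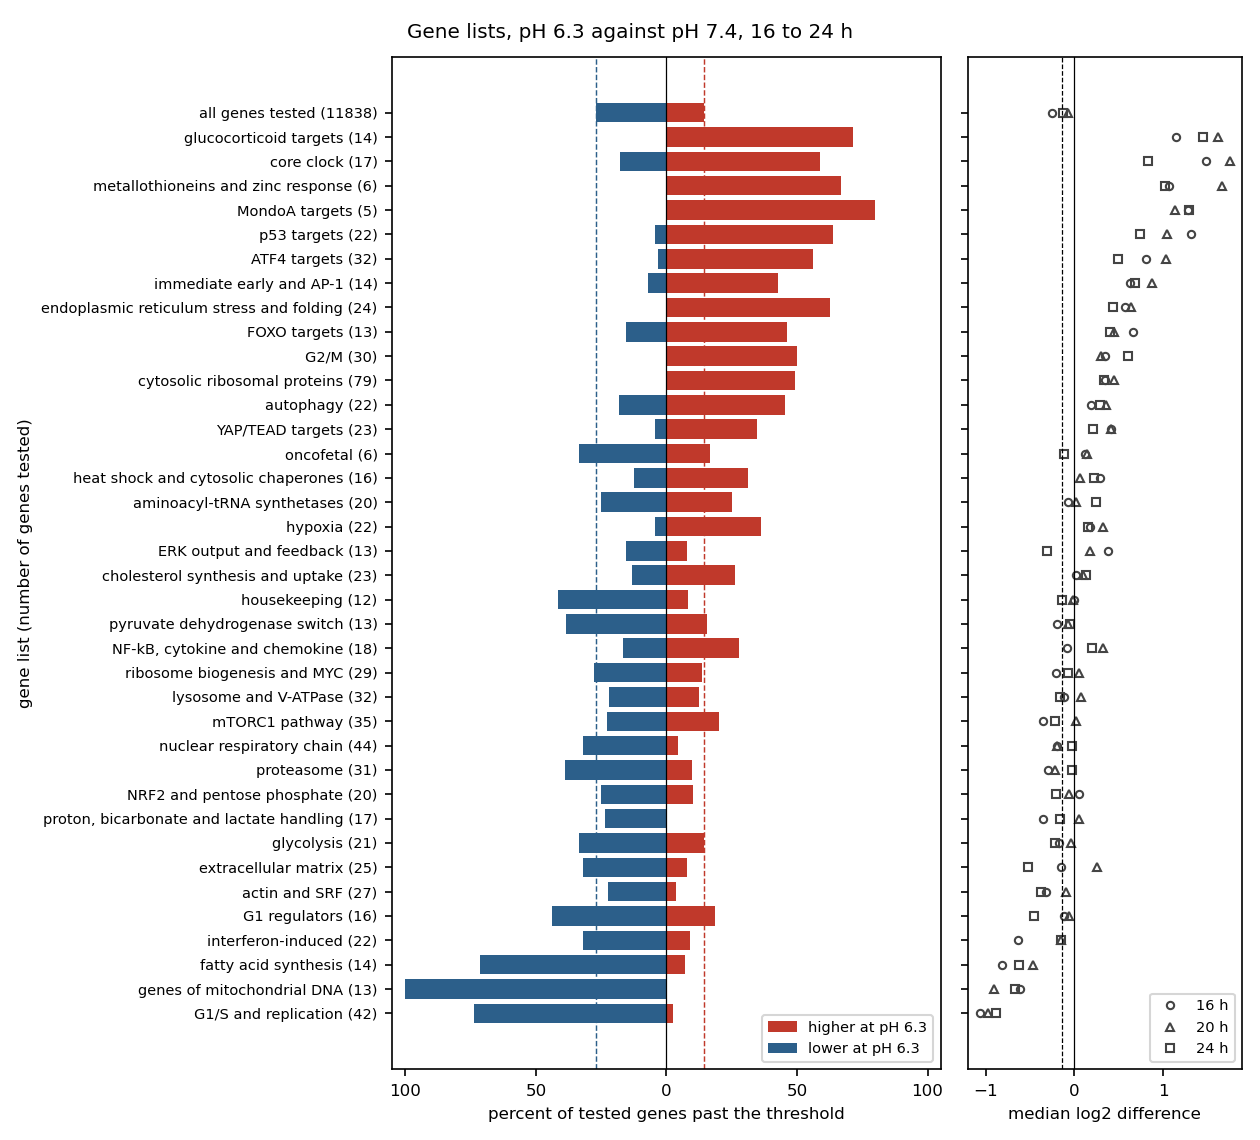
Left, percent of the tested genes of each list that were higher (red, to the right) or lower (blue, to the left) at pH 6.3 at an adjusted p below 0.05, with dashed lines at the shares of all genes (14.3% and 27%); right, the median log2(FPKM + 1) difference of the list at 16, 20 and 24 h. Glucocorticoid targets have the highest median (1.58) and G1/S genes the lowest (−0.98), and all 13 genes of mitochondrial DNA are lower (6 lower and 1 higher after quantile normalization).

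In sugar metabolism, of 21 measured glycolysis genes 7 fell and 3 rose, with a median of −0.17. After the GC correction the balance was the opposite, with 5 higher and 2 lower, and without the 16, 20 and 24 h pair 4, 3 and 3 were lower and 1, 2 and 2 higher. HK2, the inducible hexokinase, had 8.96, 6.80 and 7.26 FPKM at pH 6.3 and 1.65, 1.68 and 1.51 FPKM at pH 7.4 (difference 1.72, adjusted p = 0.00721). PFKM, the muscle phosphofructokinase, fell by 1.01, TPI1, triose phosphate isomerase, by 0.63 and PFKP by 0.58. PFKP missed the threshold after the GC correction (adjusted p = 0.0707). The glucose transporter gene SLC2A3 rose by 0.64 and HK1 by 0.44. Of 22 hypoxia genes 8 rose and 1 fell, with a median of 0.14. Beside NDRG1, ANKZF1, which acts in ribosome quality control, rose by 1.23. The member that fell was CA12, a carbonic anhydrase of the cell surface, with 5.22, 3.76 and 2.45 FPKM at pH 6.3 and 12.3, 10.3 and 8.14 FPKM at pH 7.4 (difference −1.25). HK1, SLC2A3 and TPI1 missed the threshold without the 16 h pair (adjusted p = 0.203, 0.364 and 0.0782). SLC2A3 missed the threshold without the 20 h pair (adjusted p = 0.0889). HK1 and TPI1 missed the threshold without the 24 h pair (adjusted p = 0.0886 and 0.152).

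Of 17 measured genes that carry or sense protons, bicarbonate and lactate, 0 rose and 4 fell, with a median of −0.16, and 2 were higher and 2 lower after quantile normalization. CA13, a carbonic anhydrase of the cytosol, was at 1.79, 1.75 and 1.37 FPKM at pH 6.3 and 8.12, 6.94 and 6.25 FPKM at pH 7.4 (difference −1.62, adjusted p = 2.27e-04). The acid-sensing channel gene ASIC1 fell by 0.70, with an adjusted p of 0.0525 after quantile normalization. In lipid metabolism, 10 of 14 fatty acid synthesis genes fell and 1 rose, with a median of −0.68, beside 27% lower among all genes. Without the 16 h pair 6 were lower. FADS1, a desaturase, had 40.6, 47.7 and 60.8 FPKM at pH 6.3 and 113, 116 and 124 FPKM at pH 7.4 (difference −1.25). The malic enzyme gene ME1, a source of NADPH, fell by 1.18 and SREBF1, the regulator of the pathway, by 1.08. ELOVL5, an elongase, was the member that rose, by 1.13. SREBF1 missed the threshold without the 16 h pair (adjusted p = 0.161). ASIC1 and SREBF1 missed the threshold without the 24 h pair (adjusted p = 0.0688 and 0.133).

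Of 23 cholesterol genes 6 rose and 3 fell (10 higher and 5 lower after the GC correction), with a median of 0.07. FDFT1, squalene synthase, rose by 0.84 and SQLE, squalene epoxidase, by 0.73, while PMVK, phosphomevalonate kinase, fell by 1.32. Of 20 NRF2 and pentose phosphate genes 5 fell and 2 rose, with a median of −0.16, beside 27% lower and 14.3% higher among all genes. After the GC correction 4 were higher and 3 lower, and without the 16 h or the 20 h pair 3 were lower. NQO1, a quinone reductase, had 47.6, 36.4 and 35.5 FPKM at pH 6.3 and 119, 119 and 106 FPKM at pH 7.4 (difference −1.51, adjusted p = 3.03e-05), and the heme oxygenase gene HMOX1 fell by 1.31. Metallothioneins, which bind zinc and copper, and zinc response genes were higher in 4 of 6 cases and lower in 0. MT1X had 72.9, 175 and 86.3 FPKM at pH 6.3 and 21.8, 14.5 and 22.4 FPKM at pH 7.4 (difference 2.37), MT1E rose by 1.70 and MT2A by 1.55, and these near-identical genes can share reads. MT2A had a difference of 1.07 without the 20 h pair. MT2A missed the threshold without the 20 h pair (adjusted p = 0.0892).

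The lists of lysosome and growth control held calls in both directions, as did all genes, of which 14.3% were higher and 27% lower. Of 32 lysosome and V-ATPase genes 4 rose and 7 fell, with a median of −0.03, and without the 16, 20 and 24 h pair 1, 1 and 2 were higher and 3, 1 and 1 lower. After quantile normalization 2 were higher and 5 lower, while the GC correction turned the balance, with 11 higher and 3 lower. CTSK, a collagen-cutting protease, rose by 1.40. Of 22 autophagy genes 10 rose and 4 fell, with a median of 0.30. WIPI1, which binds the forming autophagosome, had 64.3, 74.7 and 92.9 FPKM at pH 6.3 and 36.2, 36.8 and 45.6 FPKM at pH 7.4 (difference 0.94), and ATG13, a partner of the starting kinase, rose by 0.75. Without the 16, 20 and 24 h pair 6, 8 and 5 were higher and 0, 0 and 2 lower, and after the GC correction 13 were higher and 1 lower. Of 35 mTORC1 pathway genes 7 rose and 8 fell, with a median of −0.12. After quantile normalization 7 were higher and 5 lower, after the GC correction 10 and 9, and without the 16, 20 and 24 h pair 4, 4 and 5 were higher and 4, 4 and 5 lower. Of its inhibitors NPRL2, part of the GATOR1 complex, rose by 1.42, beside DDIT4 and SESN2. SEC13, part of GATOR2 and of vesicle coats, rose by 1.54. LAMTOR1, which anchors mTORC1 at the lysosome, fell by 1.04, the folliculin gene FLCN by 0.86 and the translation repressor gene EIF4EBP2 by 0.85. DDIT4 and SESN2 missed the threshold without the 16 h pair (adjusted p = 0.139 and 0.0755). DDIT4 and SESN2 missed the threshold without the 20 h pair (adjusted p = 0.147 and 0.174). FLCN missed the threshold without the 24 h pair (adjusted p = 0.184).

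All 13 protein genes of mitochondrial DNA fell, beside 27% lower among all genes, with a median difference of −0.73. Their groups did not overlap, as in 36.1% of all genes in that direction. Without the 20 h pair 12 of them were lower. MT-ND5, a subunit of complex I, was at 816, 773 and 749 FPKM at pH 6.3 and 1678, 1762 and 1641 FPKM at pH 7.4 (difference −1.12, SE 0.07, adjusted p = 3.26e-06). These genes took 13.1%, 10.6% and 12.99% of the summed FPKM at pH 6.3 and 19.6%, 20.5% and 19.7% at pH 7.4. Quantile normalization, which gives every library the same distribution of values, left 6 lower and 1 higher, and the GC correction left 13 lower. Of 44 respiratory chain genes of the nucleus 14 fell, 2 rose and 28 did not pass, with a median of −0.14, the same as all genes. The GC correction gave 9 higher and 9 lower, and 9 were lower without the 20 h pair. NDUFB3 and SDHC fell by 1.12 and 1.04, ATP5C1, of ATP synthase, by 0.97, and SDHA rose by 0.58.

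Proteins of the cytosolic ribosome had 79 measured genes, of which 39 rose and 0 fell, with a median of 0.37. They took 17.9%, 18.4% and 16.1% of the summed FPKM at pH 6.3 and 13.3%, 12.8% and 12.2% at pH 7.4. In 63 of them all acid values lay above all neutral ones, as in 20.8% of all genes. RPS16 had 907, 1219 and 875 FPKM at pH 6.3 and 638, 618 and 599 FPKM at pH 7.4 (difference 0.68). The count was 12, 28 and 14 without the 16, 20 and 24 h pair, 13 after quantile normalization and 72 after the GC correction, and the family shares reads with many pseudogenes. Of 29 ribosome biogenesis genes 8 fell and 4 rose, with a median of 0.01, and 1 was higher without the 24 h pair. Among all genes 27% were lower and 14.3% higher. UTP20 fell by 1.62, POLR1A, the large subunit of RNA polymerase I, by 1.47 and NOP56, of the nucleolar methylation complex, by 1.34, with 121, 101 and 93.5 FPKM at pH 6.3 and 282, 267 and 252 FPKM at pH 7.4 for NOP56. PES1 and GNL3 rose by 0.68 and 0.67. GNL3 missed the threshold without the 16 h pair (adjusted p = 0.131). RPS16 missed the threshold without the 20 h pair (adjusted p = 0.100). GNL3 missed the threshold without the 24 h pair (adjusted p = 0.0886).

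Of 20 aminoacyl-tRNA synthetase genes 5 rose and 5 fell, with a median of 0.15, led by YARS (0.91) and SARS (0.75) among those higher and by FARSB (−1.31), HARS (−0.92) and DARS (−0.78) among those lower. After the GC correction 12 were higher and 5 lower, and without the 24 h pair 2 and 4. Of 31 proteasome genes 12 fell and 3 rose, with a median of −0.15, PSMC3 falling by 0.84 and PSMC4 rising by 0.91, and 6, 4 and 12 were lower without the 16, 20 and 24 h pair. After the GC correction 7 were higher and 9 lower. Of 16 heat shock and chaperone genes 5 rose and 2 fell, with a median of 0.17, and 3 were higher without any 1 of the 3 pairs and 10 after the GC correction. The co-chaperone DNAJB4 rose by 1.04 and the heat-inducible DNAJB1 fell by 0.81. Of 6 oncofetal genes 1, HMGA1, rose by 0.87 and 2, LIN28B, which blocks let-7 microRNAs, and IGF2BP3, fell by 1.20 and 0.68, while quantile normalization gave 2 higher and 1 lower and the GC correction 3 and 2. Of 12 housekeeping genes 5 fell and 1 rose, with a median of 0.06. The GC correction turned this to 4 higher and 2 lower, and without the 16, 20 and 24 h pair 3, 2 and 3 were lower and none higher. ACTB, beta-actin, was at 1669.8, 1670.1 and 1278 FPKM at pH 6.3 and 2882, 2858 and 2346 FPKM at pH 7.4 (difference −0.81, adjusted p = 1.89e-04). HMGA1 and IGF2BP3 missed the threshold without the 16 h pair (adjusted p = 0.108 and 0.217). HMGA1 and IGF2BP3 missed the threshold without the 20 h pair (adjusted p = 0.249 and 0.195). HMGA1 missed the threshold without the 24 h pair (adjusted p = 0.0504).

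The window was set against the 3 hourly pairs of 4, 8 and 12 h, which came from the same set of plates. At 4 to 12 h 607 genes were higher (5.13%) and 1698 lower (14.3%) at pH 6.3, and 387 and 846 of these were called in the same direction at 16 to 24 h, which is 22.9% and 26.5% of the calls of 16 to 24 h and 63.8% and 49.8% of those of 4 to 12 h. A test of the difference between the windows called 642 genes as more positive (5.42%) and 706 as more negative (5.96%) at 16 to 24 h, 11.4% in all. The counts were 562 and 511 without the 16 h pair, 128 and 149 without the 20 h pair and 70 and 113 without the 24 h pair. In a limma fit of the 12 libraries of 4 to 24 h alone they were 0 and 0, with 1046 and 1265 genes at an unadjusted p below 0.05. The 8 and 12 h pairs each held a shallow library.

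EGR1 had the largest negative change among the genes named from this test. In the 4 h libraries it had 74.6 FPKM in acidic and 4.92 FPKM in neutral medium, and in those of 12 h 5.26 FPKM in acidic and 7.08 FPKM in neutral medium. Its acid difference was 1.66 at 4 to 12 h and −2.71 at 16 to 24 h, a change of −4.37 (adjusted p = 0.00612). TSC22D3 had the largest positive change, with 8.99 FPKM at pH 6.3 and 6.73 FPKM at pH 7.4 at 4 h, and 223 FPKM at pH 6.3 and 22.3 FPKM at pH 7.4 at 12 h. Its difference was 1.55 at 4 to 12 h (change 3.68, adjusted p = 0.00519). KRT75 stood at −0.11 at 4 to 12 h and −3.49 at 16 to 24 h (adjusted p = 0.00506), with hourly differences of 0.69, 0.25 and −1.26 before it. RAB11FIP4, an effector in endosome recycling, LCTL, C3AR1 and ENC1 also became more negative, by −2.71, −2.65, −2.45 and −2.40. SAA1, SAA2, CRY2, TEF and GSDMB, a gasdermin, became more positive, by 2.76, 2.51, 2.43, 2.33 and 2.26. Without the 20 h pair the adjusted p of this test was 0.0634 for CRY2 and 0.0782 for TEF. Without the 24 h pair it was 0.0705 for CRY2, 0.0649 for TEF, 0.0557 for ENC1, 0.0678 for RAB11FIP4, 0.0590 for SAA1 and 0.0593 for SAA2.

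**Figure D5:**
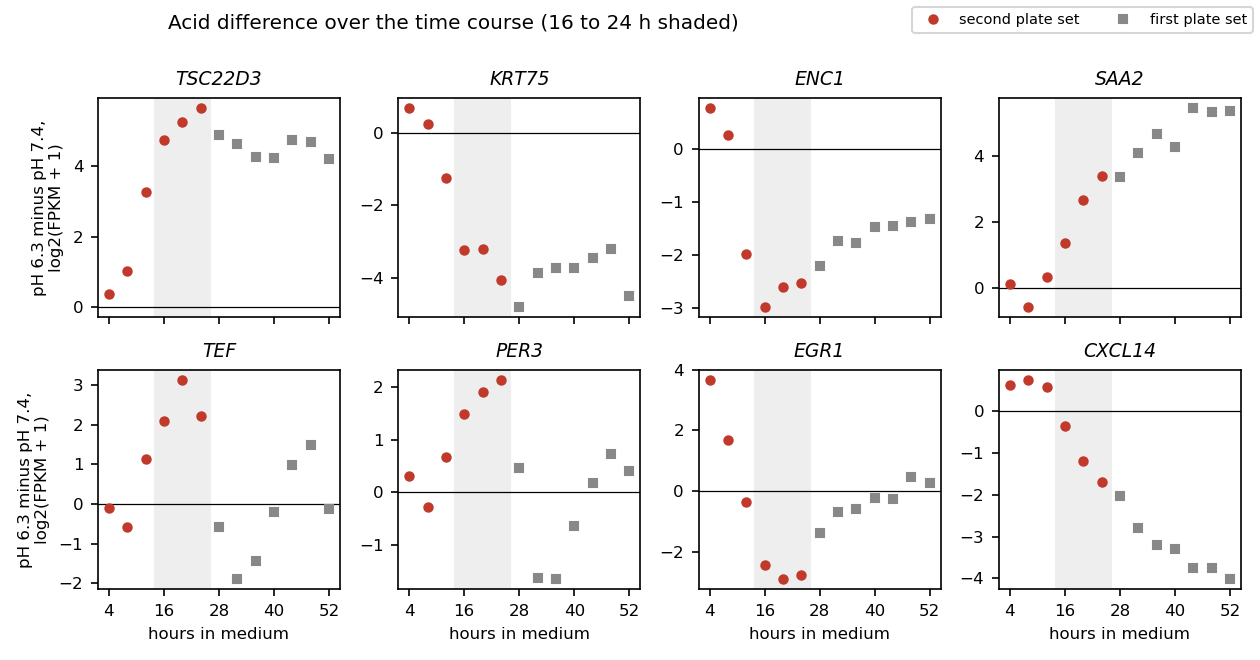
Acid difference (pH 6.3 minus pH 7.4, log2(FPKM + 1)) of 8 genes at each of 13 hours, with 16 to 24 h shaded; red circles are the second set of plates (4 to 24 h) and grey squares the first (28 to 52 h), 1 pair of libraries each. TEF is highest at 20 h (3.14) and PER3 at 24 h (2.14), EGR1 is highest at 4 h (3.67) and lowest at 20 h (−2.91), and CXCL14 is lower at 52 h (−4.02) than at 24 h (−1.70).

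Against the 7 later hours the design has a further limit, since 28 to 52 h came from the first set of plates and time in acid and plate set cannot be told apart. The test called 156 genes as more positive (1.32%) and 281 as more negative (2.37%) at 16 to 24 h than at 28 to 52 h, 3.69% in all. In limma the counts were 0 and 4 without the 16 h pair (524 and 819 at an unadjusted p below 0.05), 0 and 3 without the 20 h pair (619 and 1055 at an unadjusted p below 0.05), and 173 and 354 without the 24 h pair. Of the calls of 16 to 24 h, 1251 higher and 2177 lower genes were also called in that direction at 28 to 36 h, which is 74.0% and 68.1% of them and 59.2% and 67.8% of the 2114 higher (17.9%) and 3209 lower (27.1%) genes of that window. At 40 to 52 h 1324 and 2273 were, which is 78.3% and 71.1% of the calls of 16 to 24 h and 45.1% and 64.7% of the 2935 higher (24.8%) and 3515 lower (29.7%) genes of that window.

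TEF, PER3 and DBP were among the 6 most positive changes. TEF had differences of −0.57, −1.89 and −1.45 at 28, 32 and 36 h, where neutral cells held 6.77, 11.4 and 10.2 FPKM, and its change was 2.87 (adjusted p = 0.00942). PER3 changed by 2.23 and DBP by 2.07. ARNTL showed the opposite order, with a mean difference of −0.08 at 28 to 52 h (change −1.95, adjusted p = 0.00846), positive at 28, 32 and 36 h (0.31, 1.07 and 0.77) and negative at 40, 44 and 48 h (−0.85, −1.004 and −1.64). For TEF the adjusted p of this test was 0.0680 without the 16 h pair and 0.0771 without the 20 h pair, for PER3 0.0893 and 0.101, for DBP 0.0965 and 0.107 and for ARNTL 0.0680 and 0.0677.

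Genes outside the clock were also named from this test. CXCL14, a chemokine of epithelia and fibroblasts, was at 53.4, 35.2 and 26.2 FPKM at pH 6.3 and 69.0, 81.2 and 87.1 FPKM at pH 7.4 in the window, with a difference of −1.08 there and −3.19 at 28 to 52 h. HMGA2, a chromatin protein of embryonic cells, had 184, 85.5 and 56.9 FPKM at pH 6.3 and 36.4, 53.5 and 64.2 FPKM at pH 7.4, so the groups overlapped, with a difference of 0.93 (adjusted p = 0.0844) and of −1.19 at 28 to 52 h. PHLDA1, an ERK-induced gene, had a difference of 0.82 in the window and −0.88 later. On the other side SAA2 was at 2.47 in the window and 4.56 later. GBP2, an interferon-induced GTPase, was at −0.20 and 1.78, C8orf4 at 0.41 and 2.39, ADAMTS16 at −0.89 and 1.31 and ALG14 at −0.50 and 2.02. None of GBP2, C8orf4, ADAMTS16 and ALG14 passed for 16 to 24 h itself. Every gene of this paragraph had an adjusted p above 0.05 in the test between windows without the 16 h pair, and likewise without the 20 h pair.

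List medians by window are given as a description. For G1/S genes the median difference was −0.37 at 4 to 12 h, −0.98 at 16 to 24 h, −0.93 at 28 to 36 h and −0.85 at 40 to 52 h, and 11 of 42 were more negative at 16 to 24 h than at 4 to 12 h, against 5.96% of all genes. For ATF4 targets it was 0.37, 0.83, 1.00 and 1.73, and 6 of 32 were more negative at 16 to 24 h than at 28 to 52 h, against 2.37% of all genes. For fatty acid synthesis it was 0.07, −0.68, −0.67 and −0.66, with 4 of 14 more negative than at 4 to 12 h. For endoplasmic reticulum genes it was 0.50, 0.49, 0.51 and 0.81. For all genes it was −0.12, −0.14, −0.15 and −0.04. No call against 4 to 12 h was left in limma's fit of the 12 libraries alone, and of all genes 0 and 4 calls against 28 to 52 h were made without the 16 h pair and 0 and 3 without the 20 h pair.

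Within the window some differences widened or narrowed from hour to hour, given here as a description of 1 library per pH and hour. Among the 5 that widened most, GRIP1, a scaffold of glutamate receptors, had differences of −0.37, −1.35 and −2.16, ZNF114 of −0.11, −1.13 and −2.20 and METTL7B of 0.13, −1.66 and −2.33. SAA2 and HMSD, with 2.99, 1.22 and 1.38 FPKM at pH 6.3 and 2.81, 3.21 and 20.6 FPKM at pH 7.4, were the others, and HMSD did not pass for the window. Among the 5 that narrowed most, NR1D2 had differences of 3.32, 1.99 and 0.82, with 5.67, 7.63 and 15.5 FPKM at pH 7.4, and IFIT1, an antiviral gene, of −2.62, −1.51 and −0.09. ATL1 also narrowed. CLHC1 (−2.68, −1.88 and 0.35) and CH17-270A2.2 (−4.45, −0.72 and 1.47) became smaller in size but changed sign at 24 h. The acid library of 16 h listed CH17-270A2.2 at 1.37e-17 FPKM, in effect no signal. Of these 5 NR1D2 and ATL1 passed for the window as a whole (ATL1 −1.72, adjusted p = 0.00996). ATL1 missed the threshold without the 16 h pair (adjusted p = 0.110). ATL1, GRIP1, METTL7B and ZNF114 missed the threshold without the 20 h pair (adjusted p = 0.0635, 0.103, 0.154 and 0.0844). GRIP1, METTL7B and ZNF114 missed the threshold without the 24 h pair (adjusted p = 0.226, 0.274 and 0.259).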

How the data were processed

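RNA from U2OS cells was sequenced as Illumina TruSeq Stranded mRNA libraries, 1 from each of 13 hours in each medium, with an RNA integrity number of 8.7 to 10.0. Per the submitters' processing notes STAR, Cufflinks and hg38 were used; the sources used here give neither versions nor the strand setting of the counting. The authors deposited 1 table of FPKM values for 19806 rows and 26 libraries. Depth is not in the table, and the totals printed rest on taking the most frequent low value as 1 fragment.

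Tests covered 11838 genes, 1 row per symbol, whose FPKM averaged 1 or more in the 26 libraries. A linear model of log2(FPKM + 1) was fitted with limma 3.58.1 (R 4.3.3; eBayes with trend) to all 26 libraries, with hour as a block and 1 pH effect for each of the windows 4 to 12, 16 to 24, 28 to 36 and 40 to 52 h, which left 9 residual degrees of freedom. P-values were adjusted by Benjamini-Hochberg over all genes at 0.05. The two-sided tests were also run on simulated data with independent noise for each value. Those data held no GC trend and no link between successive hours, so they cannot show how the tests behave under either. The hours pair the libraries because the labels give both media of an hour as harvested together.

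Genes were named by rule: the 12 largest increases and decreases past the threshold with at least 5 FPKM in 1 medium and 1 direction at all 3 hours, up to 3 in each direction per list, all tested clock genes, the 6 largest in each direction in each test between windows, the 5 differences that grew and the 5 that shrank most within the window, and 13 genes set by name. A few genes are not reported here. The libraries and lists were chosen with earlier results of these data known. Alternatives were quantile and upper-quartile scaling, a GC correction, other pseudocounts and filters, no block, other sets of libraries and each pair left out. Promoters came from RefSeq (GRCh38.p14).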

Additional observations from a re-analysis of the deposited data

Results flagged for a closer look

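The acid difference at 16 to 24 h differed from that at 4 to 12 h in 642 genes that were more positive and 706 that were more negative, by limma's test of the difference itself. Without the 20 h pair 128 and 149 genes were called, without the 24 h pair 70 and 113, and in the fit of the 12 libraries of 4 to 24 h 0 and 0 (1046 and 1265 at an unadjusted p below 0.05). EGR1 changed by −4.37, KRT75 by −3.38, RAB11FIP4 by −2.71, LCTL by −2.65, C3AR1 by −2.45 and ENC1 by −2.395 on the log2(FPKM + 1) scale. On the positive side TSC22D3 changed by 3.68, SAA1 by 2.76, SAA2 by 2.51, CRY2 by 2.43, TEF by 2.33 and GSDMB by 2.26.

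Against 28 to 52 h 156 genes were more positive and 281 more negative at 16 to 24 h. These limma counts were 0 and 4 without the 16 h pair (524 and 819 at an unadjusted p below 0.05) and 0 and 3 without the 20 h pair (619 and 1055). TEF changed by 2.87, PER3 by 2.23, HMGA2 by 2.12, CXCL14 by 2.11, DBP by 2.07 and PHLDA1 by 1.69. ALG14 changed by −2.51, EGR1 by −2.30, ADAMTS16 by −2.20, SAA2 by −2.09, C8orf4 by −1.98 and GBP2 by −1.977. Time in acid and plate set cannot be told apart in this second test.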

How the results depend on the processing

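Of 201 named genes 188 passed the threshold at 16 to 24 h, and 126 of these kept their direction and their side of the threshold under every alternative run. Among genes described above, CCND1, METTL7B, PFKP, SPRED1 and ZNF114 missed the threshold after the GC correction. After quantile normalization ASIC1, CCND1, GRIP1, IGF2BP3, METTL7B, MYL12A, SESN3, SPRED1 and ZNF114 missed it. Over 3973 recomputed values of single genes 3667 kept both, 282 missed the threshold, 14 newly passed it and 10 changed sign. Those 10 include MT-ATP8, whose value went in effect to no difference. The counts of 1690 higher and 3195 lower genes stayed within 1.5 times except with the GC correction and in some fits without 1 pair. With the GC correction 3015 genes were higher against the mean of all libraries and 3009 against the mean of the window. Leaving out 1 pair gave 1125 to 1271 higher and 2079 to 2492 lower genes. An added fit of the 6 libraries without the 20 h pair was chosen after seeing the data. It gave 1289 and 2741, above those ranges and within 1.5 times of the main counts.

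Without the replicate block by hour 1918 genes were higher and 3667 lower. The tests between windows then called 1040 and 1105 genes against 4 to 12 h, and 393 and 686 against 28 to 52 h. The GC corrections gave 1306 or 1304 more positive and 1295 or 1281 more negative genes against 4 to 12 h, and 536 or 528 and 566 or 577 against 28 to 52 h. Without the 8, 12, 28, 44 and 48 h pairs the counts were 1110 and 1931 against 4 to 12 h, and 347 and 590 against 28 to 52 h. In limma's fit of the 12 libraries of 4 to 24 h they were 0 and 0 (1046 and 1265 at an unadjusted p below 0.05). Leaving out 1 pair gave 70 to 562 and 113 to 511 against 4 to 12 h, and 0 to 173 and 3 to 354 against 28 to 52 h. The cause was not tested.

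Single genes changed sign as follows. BHLHE40 was at 0.0174 with upper-quartile scaling and 0.134 and 0.135 with the GC corrections. Leaving out 1 pair gave −0.27 to 0.189 for BHLHE40, −0.0215 to 0.12 for BHLHE41, −0.21 to 1.29 for C8orf4, −2.58 to 0.38 for CH17-270A2.2, −0.58 to 0.0712 for GBP2 and −0.37 to 0.35 for NFIL3. MT-ATP8, which passed at −1.12, was at 4.54e-15 after quantile normalization, in effect no difference and not a change of direction. Depth limits what can be said of genes with low FPKM, and 1 library stood for each pH and hour.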
